A study of Mus musculus with 6 samples.

Results

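The 78 mitochondrial ribosomal protein genes of the mouse were followed from normal stomach to Yap-activated stomach tumour tissue. They were chosen by symbol, as every gene of the count table whose name starts with Mrpl or Mrps followed by a number, and they make up 78 of 21526 gene symbols. By the letter in the symbol, 49 belong to the large subunit (Mrpl) and 29 to the small subunit (Mrps). All 78 are annotated as protein-coding, on 17 chromosomes. In total 77 had enough reads to be tested. The exception was Mrpl53, with no reads in the 3 Normal libraries and 0, 1 and 2 reads in the Yap-activated ones, most of whose exon length is also annotated to another gene on the same strand.

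The Normal group held 3 libraries of gastric corpus epithelium from wild-type (WT) mice. The Yap-activated group held 3 libraries from mice of genotype CluCreERT2;R26rtTA;HA-Yap+, which combines a tamoxifen-dependent Cre at the Clu locus, the doxycycline-dependent activator rtTA at Rosa26 and an HA-tagged Yap transgene, and whose tissue was labelled as gastric cancer. Mice of both groups received 2 mg of tamoxifen on 5 days and then doxycycline food for 14 days. Epithelium was freed with EDTA and not cultured, and the labels used here give no mouse age. Cre under Clu acts in cells that express Clu, whose descendants keep the recombined allele, and the Normal mice lacked all 3 alleles, so CreERT2 and rtTA effects and Yap effects cannot be told apart. Libraries held 25580734 to 48440033 counts, and the median member had 6936.5 reads over the 6 libraries. Yap1 read 100.3 to 106 CPM (counts scaled to a common library size) in Normal and 1468 to 3084 CPM in the Yap-activated group, the order that the labels give.

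The mitochondrial ribosome translates the few mRNAs of the mitochondrial genome, all of which encode membrane subunits of the respiratory chain and ATP synthase. Its RNAs come from mitochondrial DNA, but its proteins are encoded in the nucleus, made in the cytosol and imported. Many have a counterpart in the bacterial ribosome, and others were added in the mitochondrial lineage. The small subunit binds mRNA and decodes it, while the large subunit forms the peptide bond and passes the chain into the inner membrane. Acid-secreting parietal cells of the corpus are among the cells richest in mitochondria.

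Most of these genes moved little, and more of them fell than rose when libraries were scaled by TMM. In Yap-activated tissue 31 of 77 members fell, where 29.7% of all 14600 genes tested did so, and 4 rose, where 29.8% of all genes did so (edgeR's quasi-likelihood test, Benjamini-Hochberg adjusted p under 0.05). With library totals as the only scaling the split turned round, to 7 lower (15.7% of all genes) and 28 higher (51.5% of all genes). The other 42 members were not called. The members' median log2 fold change was -0.28 with TMM (25th to 75th percentile -0.59 to -0.00), against 0.01 over all genes (-0.62 to 0.66), and it turned to 0.21 with library totals alone. Only 4 members, or 5.19%, changed by more than 1 on the log2 scale, against 35.0% of all genes tested. The 3 Yap-activated libraries all lay below the 3 Normal ones in TMM-scaled CPM for 39 members (50.6%, against 34.4% of all genes) and all above for 5 (6.49%, against 33.2%).

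The turn between scalings is a shift common to all genes. Library totals alone raised the median over all genes from 0.01 to 0.50, a shift of 0.49, and relative to it the members kept their place: 59 of 77 lay below the all-gene median under either scaling. A shift common to all genes leaves that count as it is, so its agreement between scalings is no check of it. With TMM it was 49 without Yap-activated replicate 3, 53 without Normal replicate 1 and 62 without Normal replicate 3. No member was called in opposite directions. Of the 31 that fell with TMM, 24 lost their call with library totals alone, and 7 kept it: Mrpl9, Mrpl16, Mrpl30, Mrpl34, Mrpl42, Mrpl55 and Mrps35. All 4 members that rose with TMM also rose with library totals alone. Values below are TMM-scaled unless another scaling is named. TMM scales libraries so that most genes centre on no change, so the fold changes are relative to that centre. Whether the 3 libraries of a group came from separate mice is not stated in the labels, so p-values speak only of the spread among these 6 libraries, part of which could be technical.

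**Figure D1:**
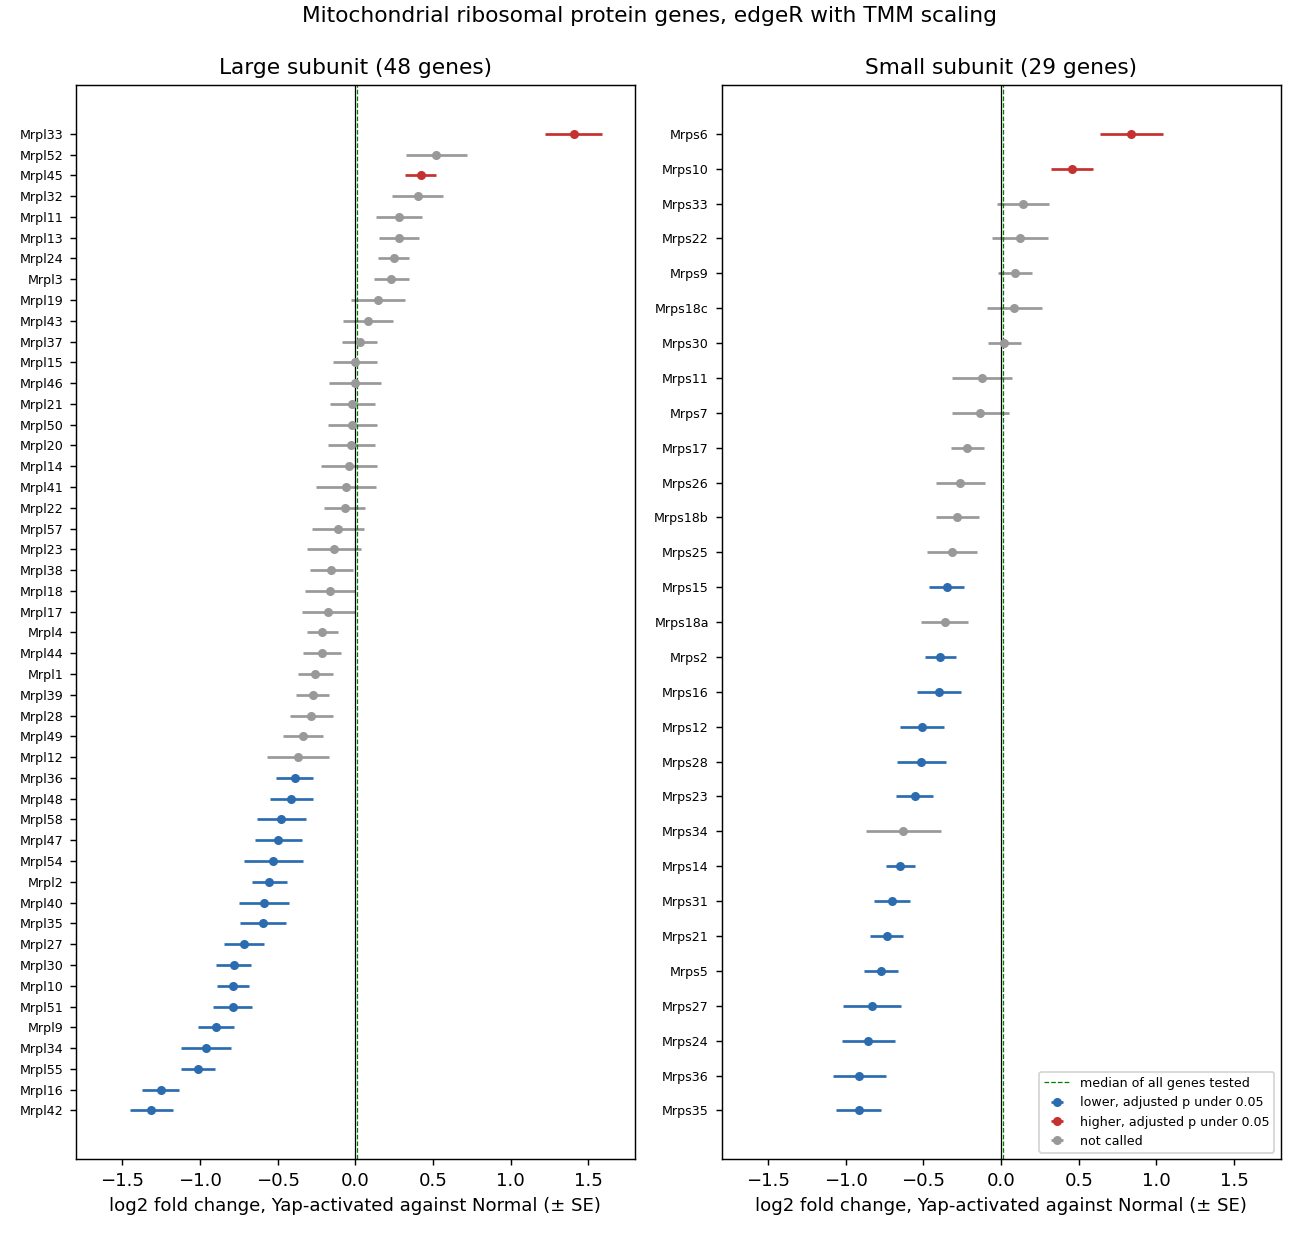
Log2 fold change of each tested member, Yap-activated against Normal, with TMM scaling (x axis; points with bars of 1 SE), in 48 large-subunit genes (left) and 29 small-subunit genes (right). Most points lie left of 0, with 31 called lower (blue) and 4 called higher (red), and Mrpl33 stands farthest to the right at 1.41; with library totals alone 7 are lower and 28 higher.

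**Figure D2:**
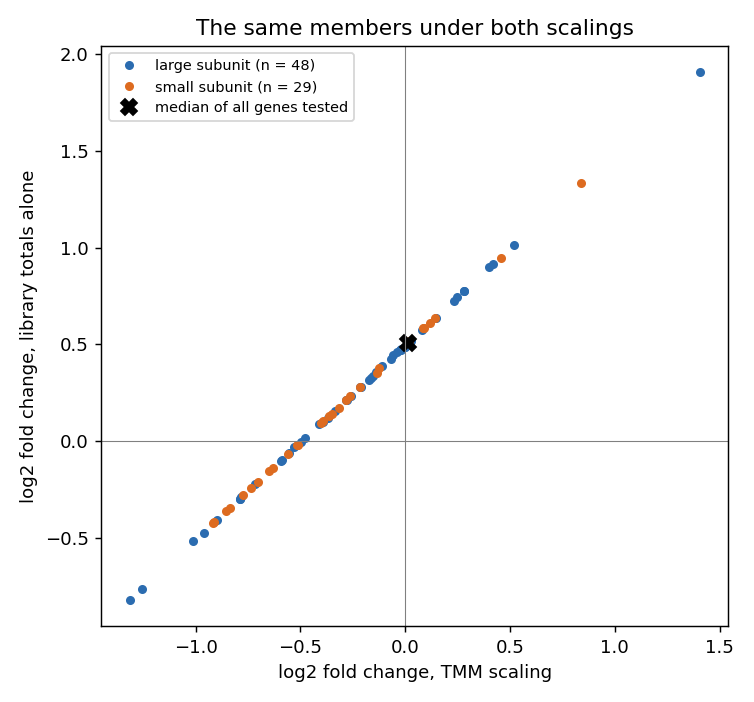
Log2 fold change of the 77 members with TMM scaling (x axis) and with library totals alone (y axis), large subunit in blue and small subunit in orange, with the median of all tested genes as a cross. All members lie on 1 line shifted upward by about 0.49, and 59 of 77 lie below the cross on either axis.

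The member that rose most was Mrpl33, which encodes a small protein of the large subunit with a bacterial counterpart (bL33). It read 17.2, 11.97 and 11.8 CPM in the 3 Normal libraries and 41.5, 30.8 and 36.4 CPM in the 3 Yap-activated ones. Every Yap-activated library was above every Normal one. The mean went from 13.7 ± 3.07 to 36.2 ± 5.34 CPM (SD, n = 3 each), a log2 fold change of 1.41 (SE 0.19, edgeR adjusted p = 3.99e-04). In the annotation it lies on chromosome 5, plus strand, from 31596935 to 31664384 (GRCm38), and shares exon bases with a predicted gene on the same strand.

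Mrps6 encodes the small-subunit counterpart of bacterial S6. Its levels were 9.81, 7.72 and 7.84 CPM in Normal and 19.3, 13.5 and 12.7 CPM in Yap-activated libraries, with Yap-activated replicate 1 highest and no overlap between the groups. It rose by 0.84 on the log2 scale (SE 0.20, edgeR adjusted p = 0.00826). Its exons overlap those of Slc5a3, a sodium and myo-inositol cotransporter gene on the same strand, which itself rose from 16.1 ± 6.09 to 31.8 ± 7.30 CPM (log2 0.98, edgeR adjusted p = 0.0226), so the 2 cannot be fully told apart in these counts.

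Mrpl45, whose protein sits at the mouth of the exit tunnel and anchors the ribosome to the inner membrane, read 27.7, 26.4 and 27.0 CPM in Normal and 33.7, 36.2 and 38.7 CPM in Yap-activated libraries. The groups did not overlap, and Normal libraries lay close together. The log2 fold change was 0.42 (SE 0.10, edgeR adjusted p = 0.00709). Mrps10, the counterpart of bacterial S10, read 23.7, 25.8 and 24.5 CPM against 38.3, 35.3 and 28.0 CPM, again without overlap, with Yap-activated replicate 3 nearest to Normal. It rose by 0.46 (SE 0.13, edgeR adjusted p = 0.0189). That call was lost without Normal replicate 1 (edgeR adjusted p = 0.066), without Normal replicate 3 (adjusted p = 0.0623) and without Yap-activated replicate 1 (adjusted p = 0.0519).

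At the other end stood Mrpl42, a large-subunit protein with no bacterial counterpart. It read 79.5, 68.9 and 76.3 CPM in Normal and 33.4, 32.6 and 24.6 CPM in Yap-activated libraries. The lowest Normal library was above the highest Yap-activated one. The log2 fold change was -1.31 (SE 0.14, edgeR adjusted p = 1.23e-04). Mrpl16, whose protein lies near the site where peptide bonds form, read 38.8, 43.3 and 44.6 CPM in Normal and 18.7, 18.9 and 15.5 CPM in Yap-activated libraries. Its groups were likewise apart, and its log2 fold change was -1.25 (SE 0.12, edgeR adjusted p = 7.84e-05).

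Mrpl55, a small protein of the large subunit, went from 33.2, 29.0 and 29.8 CPM to 15.6, 15.8 and 14.2 CPM, with no overlap (log2 -1.01, SE 0.11, edgeR adjusted p = 1.57e-04). Mrpl34, a very short large-subunit protein, went from 45.7, 52.2 and 44.3 CPM to 26.6, 27.7 and 18.8 CPM, with Yap-activated replicate 3 lowest (log2 -0.96, SE 0.16, edgeR adjusted p = 0.00136). Mrps35, a small-subunit protein specific to mitochondria, went from 59.8, 56.1 and 54.8 CPM to 29.9, 36.1 and 24.5 CPM (log2 -0.92, SE 0.15, edgeR adjusted p = 0.00106). In each of these 3 genes every Yap-activated library was below every Normal one. The next falls, by edgeR's test, were those of Mrps36 (log2 -0.91, adjusted p = 0.0025), Mrpl9 (-0.90, adjusted p = 3.22e-04) and Mrps24 (-0.86, adjusted p = 0.00329).

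**Figure D3:**
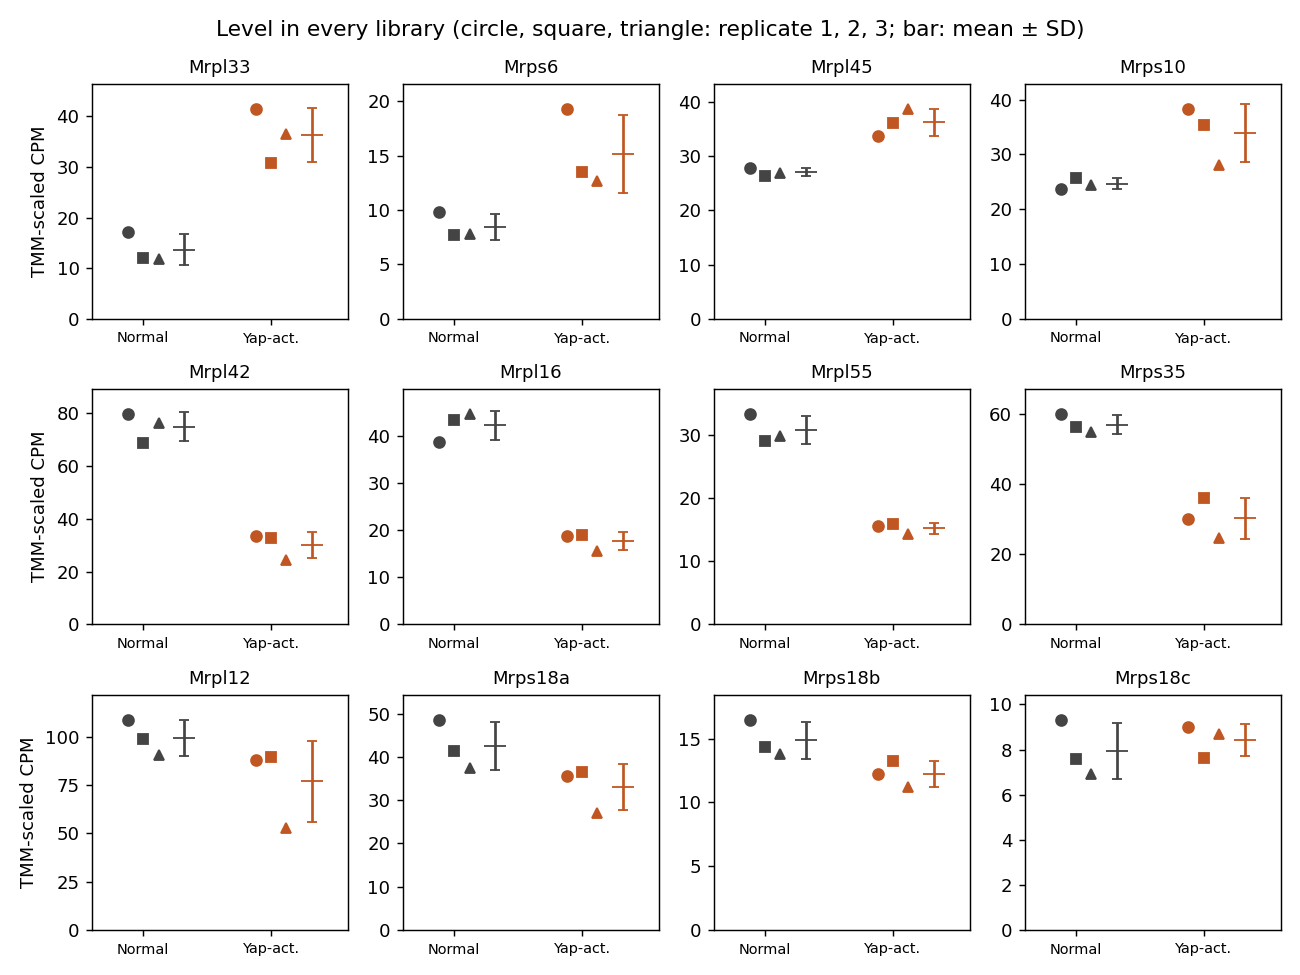
TMM-scaled CPM (y axis, from 0) of 12 members in the 3 Normal and the 3 Yap-activated libraries, 1 symbol per library, with the mean ± SD beside them. The groups do not overlap in the top row (Mrpl33, Mrps6, Mrpl45, Mrps10 higher) or the middle row (Mrpl42, Mrpl16, Mrpl55, Mrps35 lower), while the bottom row holds Mrpl12 and the 3 Mrps18 genes, none of which was called.

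The promoters of 4 members are shown to let a reader compare the sequence of the gene that rose most with that of genes that fell. They are the 4 with the largest change of either sign among members whose upstream window in the table shares at most 30 bases with an annotated exon, a choice made after their values were seen. Each gives the 250 bases before a start of transcription in RefSeq's annotation on GRCm38.p6, 5' to 3' on the gene's own strand. The Mrpl33 window lies inside the gene span given above, which begins at 31596935, so that annotation places another start farther upstream. Capitals mark the searched motifs found there: CCAAT (bound by NF-Y, read as ATTGG on the other strand) in Mrpl33 and Mrpl42, and CCGGAAG (bound by ETS factors) in Mrpl34. The windows are Mrpl33 at chr5:31613701-31613950 (plus strand), Mrpl42 at chr10:95501950-95502199 (minus), Mrpl16 at chr19:11770165-11770414 (plus) and Mrpl34 at chr8:71464676-71464925 (plus).
Mrpl33: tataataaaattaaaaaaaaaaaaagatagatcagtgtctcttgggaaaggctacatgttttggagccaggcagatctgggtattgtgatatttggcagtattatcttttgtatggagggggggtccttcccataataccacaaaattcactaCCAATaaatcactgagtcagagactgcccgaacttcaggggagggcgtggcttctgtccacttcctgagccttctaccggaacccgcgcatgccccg
Mrpl42: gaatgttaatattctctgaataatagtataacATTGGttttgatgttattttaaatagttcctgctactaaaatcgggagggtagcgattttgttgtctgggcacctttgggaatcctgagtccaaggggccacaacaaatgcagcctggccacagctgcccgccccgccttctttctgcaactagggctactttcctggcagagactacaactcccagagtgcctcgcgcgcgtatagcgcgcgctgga
Mrpl16: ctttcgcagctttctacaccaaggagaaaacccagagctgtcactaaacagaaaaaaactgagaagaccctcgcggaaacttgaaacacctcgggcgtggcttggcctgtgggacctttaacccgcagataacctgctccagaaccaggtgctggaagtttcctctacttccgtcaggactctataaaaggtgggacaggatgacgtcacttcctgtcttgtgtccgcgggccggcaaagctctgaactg
Mrpl34: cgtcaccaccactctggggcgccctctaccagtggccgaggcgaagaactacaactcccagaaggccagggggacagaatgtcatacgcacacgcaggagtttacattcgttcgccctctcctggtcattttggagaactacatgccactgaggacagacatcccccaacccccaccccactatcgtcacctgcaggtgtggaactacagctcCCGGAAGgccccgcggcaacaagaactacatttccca

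The window of Mrpl16 held none of the motifs searched. In Mrpl33 an ETS word spanned the start itself, and Mrpl42 held a match to AAGATGGCG after its start, beyond the printed bases. RefSeq's table held a promoter for 69 of the 78 members, with 75 windows from 250 bases before to 50 after the start. Searched on both strands, CCGGAAG was found in 26 of the 75 windows (34.7%), against 11.9% of the 20130 windows of genes in the count table. AAGATGGCG, bound by YY1, was in 8 (10.7%, against 1.93%), and the NRF1 motif in 3 (4.0%, against 1.38%). CCAAT was in 30 (40.0%, against 37.8%), the E-box CACGTG in 7 (9.33%, against 8.04%), the word CATTCC, bound by TEAD factors, the DNA-binding partners of Yap, in 8 (10.7%, against 13.3%) and the estrogen-related receptor word TGACCTTG in 2 (2.67%, against 1.25%). The ETS word was in 15 of 48 large-subunit and 11 of 27 small-subunit windows. Some members had several windows, which could overlap and hold the same site. The E-box of Mrpl2 was counted in 3 windows, its CCAAT words likewise, and a CCAAT word of Mrps16 in 2. Windows of the neighbours Mrpl46 and Mrps11 also overlap each other, so the same CATTCC sites were counted for both genes. The shares thus count windows and not genes, and nothing is drawn from the small difference for the E-box. These are matches of letters, given as a description.

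Large- and small-subunit genes were then counted separately. Of 48 large-subunit genes 17 fell and 2 rose, with a median log2 fold change of -0.19; with library totals alone 6 fell, 20 rose and the median was 0.30. Of 29 small-subunit genes 14 fell and 2 rose, with a median of -0.36; with library totals alone 1 fell, 8 rose and the median was 0.13. The shares that fell with TMM were 35.4% of the large and 48.3% of the small subunit, beside 29.7% of all genes tested, so the large-subunit share lies near that of all genes. The shares that rose were 4.17% and 6.90%, beside 29.8% of all genes. With library totals alone 15.7% of all genes were lower and 51.5% higher. The difference between the subunits' shares was not tested. The large-subunit median rests much on Yap-activated replicate 3: without that library it was -0.09, and the small-subunit median was -0.25. By library the large-subunit median stood at 0.08, -0.02 and -0.08 in Normal and at -0.07, -0.10 and -0.42 in Yap-activated replicates 1, 2 and 3, so the first of these lay within the Normal range. The small-subunit median stood at 0.08, -0.03 and -0.08 in Normal and at -0.29, -0.29 and -0.63 in the Yap-activated libraries, all below Normal. Symbols do not always give the subunit. In the assembled ribosome Mrps30 and Mrps18a belong to the large subunit, and Mrps36 is a component of the 2-oxoglutarate dehydrogenase complex. Sorted that way, 17 of 50 large-subunit genes fell (median -0.19) and 13 of 26 small-subunit genes fell (median -0.37), with 2 rises in each; library totals alone add the same shift to both groups.

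The balance of the subunits within a library does not depend on how libraries are scaled. Large-subunit genes gave 2.04, 2.03 and 2.03 reads for each small-subunit read in the 3 Normal libraries, and 2.29, 2.26 and 2.23 in the 3 Yap-activated ones. The means were 2.03 ± 0.00618 and 2.26 ± 0.0335 (SD, n = 3 each), and the groups did not overlap. Without Mrpl33 the ratio was 2.02, 2.02 and 2.01 against 2.24, 2.22 and 2.17. Sorted by structure it was 2.28 ± 0.0147 against 2.55 ± 0.0253, and with counts divided by exon length 2.31 ± 0.0461 against 2.62 ± 0.0481. Among the 45 members whose exons overlap no other gene it was 1.79, 1.77 and 1.73 against 1.98, 1.98 and 1.84. In every one of these forms the lowest Yap-activated library was above the highest Normal one.

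**Figure D4:**
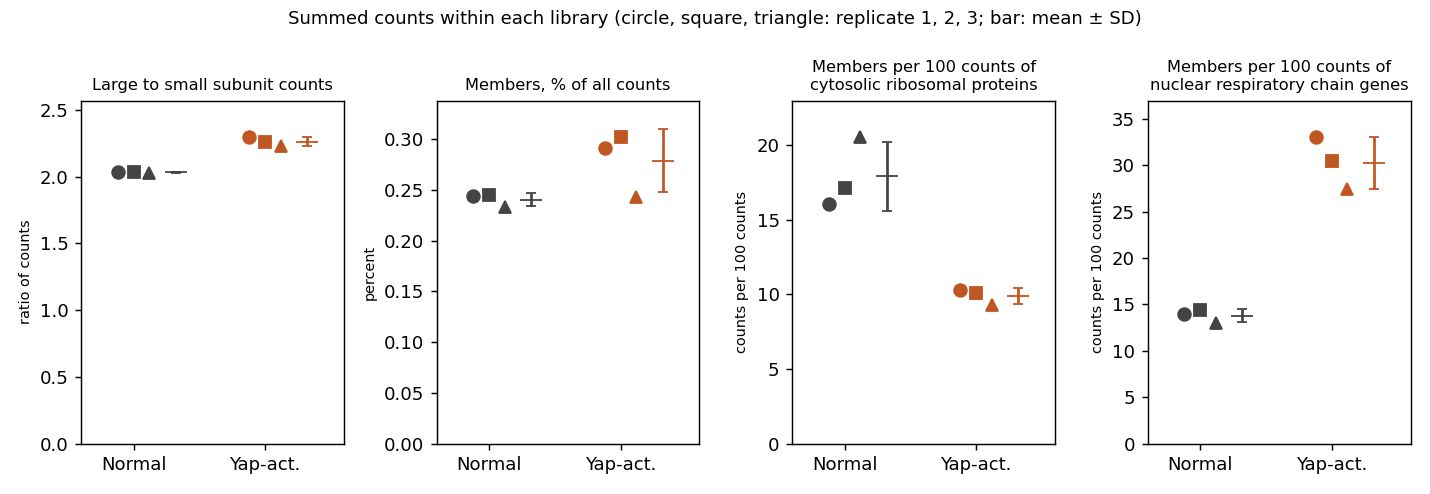
Sums over the members within each library (y axes from 0; 1 symbol per library, with mean ± SD): the ratio of large- to small-subunit counts, the members' percent of all counts, and their counts per 100 counts of cytosolic ribosomal protein genes and of nuclear-encoded respiratory chain genes. The large-to-small ratio is 2.03 to 2.04 in Normal and 2.23 to 2.29 in Yap-activated libraries, while the percent of all counts overlaps between groups.

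As a share of all counts the members took 0.244%, 0.244% and 0.233% in Normal and 0.291%, 0.302% and 0.243% in Yap-activated libraries. Yap-activated replicate 3 thus fell within the Normal range and the other two above it. The mitochondrially encoded transcripts, which count toward the total, made up 19.6 ± 6.93% of reads in the Normal group and 10.2 ± 3.25% in the other (SD, n = 3 each). With those transcripts left out of the total, the members took 0.301 ± 0.0322% and 0.311 ± 0.0373%.

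Yap-activated replicate 3 was the lowest library of its group for 69 of the 77 members, 44 of 48 in the large and 25 of 29 in the small subunit. The same count was not made over all genes. The median member stood at -0.17, -0.17 and -0.54 (log2 of TMM-scaled CPM relative to the Normal mean) in Yap-activated replicates 1, 2 and 3, while the median over all genes lay between -0.02 and -0.00. With library totals alone the median member stood at 0.28, 0.34 and -0.01 in these libraries, beside 0.45, 0.48 and 0.52 over all genes. In the Normal libraries the median member stood at 0.08, -0.03 and -0.08. Without Yap-activated replicate 3, 26 members fell (28.9% of all genes) and 10 rose (28.8% of all genes), with a median of -0.17. All 26 were among the 31 found with all libraries. Without Normal replicate 1, 22 fell (26.5% of all genes) and 5 rose (26.0% of all genes).

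The members differ in origin and in place. Of the 46 with a bacterial counterpart 20 fell (43.5%, beside 29.7% of all genes) and 3 rose (6.52%, beside 29.8%), with a median log2 fold change of -0.24. Of the 30 tested that are specific to mitochondria 10 fell (33.3%, near the share of all genes) and 1 rose (3.33%), with a median of -0.28. The medians of both groups turn positive when the shift of 0.49 from library totals alone is added.

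In the stalk and the GTPase centre, where translation factors dock, 1 of 3 genes fell, near the share of all genes (29.7%). The regions described here hold few genes, and their counts were not tested against that share. Mrpl10, the stalk base, went from 37.5 ± 1.90 to 21.7 ± 1.49 CPM (log2 -0.79, edgeR adjusted p = 3.97e-04). Mrpl12, which forms the stalk itself and is also known to bind mitochondrial RNA polymerase, read 109, 98.8 and 90.4 CPM in Normal and 88.1, 89.8 and 52.8 CPM in Yap-activated libraries. The groups did not overlap, but replicate 3 lay far below the other Yap-activated libraries, and the fold change was not called (log2 -0.37, SE 0.20, edgeR adjusted p = 0.148; 0.12 with library totals alone). Mrpl11 was not called (log2 0.28, edgeR adjusted p = 0.137), but passed without Yap-activated replicate 3 (log2 0.42, adjusted p = 0.0207) and with library totals alone (0.78).

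Among 5 proteins grouped here as surroundings of the peptidyl transferase centre, the site of peptide bond formation, 3 fell with TMM scaling, where 29.7% of all genes did so. These were Mrpl16, Mrpl27 (log2 -0.72, edgeR adjusted p = 0.00197) and Mrpl2 (-0.55, edgeR adjusted p = 0.00408), of which only Mrpl16 fell with library totals alone. Mrpl4 (-0.21), which reaches into the exit tunnel, and Mrpl3 (0.23) were not called with TMM. Both were called higher with library totals alone (0.28, edgeR adjusted p = 0.0449, and 0.72, edgeR adjusted p = 6.34e-04). Among other proteins around the exit tunnel Mrpl47 fell (log2 -0.50, edgeR adjusted p = 0.0238), Mrpl45 rose, and Mrpl22, Mrpl23 and Mrpl24 were not called, with values between -0.14 and 0.25. The call of Mrpl47 was lost with library totals alone (-0.0043) and without any 1 of the Normal libraries (edgeR adjusted p = 0.0535 to 0.0745). Library totals alone called Mrpl22 (0.42) and Mrpl24 (0.74) higher and turned Mrpl23 to 0.36.

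Of 6 proteins of the decoding site and the mRNA path 3 fell with TMM scaling (29.7% of all genes) and none with library totals alone (15.7% of all genes). Mrps5 went from 45.0 ± 2.12 to 26.3 ± 2.57 CPM (log2 -0.77, edgeR adjusted p = 5.46e-04), Mrps24 is given above, and Mrps12, the counterpart of bacterial S12 at the decoding site, went from 28.8 ± 1.93 to 20.2 ± 3.27 CPM (log2 -0.51, edgeR adjusted p = 0.0156). The call of Mrps12 was lost without Normal replicate 1 (edgeR adjusted p = 0.0554). Mrps7 (-0.14), Mrps9 (0.09) and Mrps11 (-0.12) were not called with TMM; library totals alone turned Mrps7 to 0.35 and Mrps11 to 0.38 and called Mrps9 higher (0.58). Mrps2 fell (log2 -0.39, edgeR adjusted p = 0.0104; 0.10 with library totals alone).

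The 3 Mrps18 genes are related in sequence and encode proteins that take different places in the ribosome. Mrps18a read 48.5, 41.4 and 37.5 CPM in Normal and 35.6, 36.5 and 27.0 CPM in Yap-activated libraries, without overlap but with little gap (log2 -0.36, edgeR adjusted p = 0.0698). Mrps18b read 16.5, 14.3 and 13.8 CPM against 12.2, 13.2 and 11.2 CPM, also without overlap (log2 -0.28, edgeR adjusted p = 0.113). Mrps18c read 9.32, 7.58 and 6.92 CPM against 8.98, 7.63 and 8.68 CPM, which overlap (log2 0.09, edgeR adjusted p = 0.695). None of the 3 was called with TMM scaling; with library totals alone Mrps18a and Mrps18b turned to 0.13 and 0.21, and Mrps18c was called higher (0.58).

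Members with added functions gave mixed results. Mrpl58, a peptidyl-tRNA hydrolase that frees stalled chains, fell (log2 -0.48, edgeR adjusted p = 0.0321), but the call was lost with library totals alone (0.016) and without any 1 of the Normal libraries. Mrpl44, which is related to RNase III enzymes, was not called (log2 -0.22, edgeR adjusted p = 0.163), nor was Mrps30 (0.02, edgeR adjusted p = 0.883); with library totals alone Mrpl44 turned to 0.28 and Mrps30 was called higher (0.52). Mrps34 came close to the threshold with -0.63 (SE 0.24, edgeR adjusted p = 0.0531), and its exons overlap genes on both strands. On either side of the threshold lay Mrps16 (-0.40, adjusted p = 0.0404) and Mrpl54 (-0.53, adjusted p = 0.0441) just inside, and Mrpl52 (0.52, adjusted p = 0.051) with Mrps34 just outside. Mrpl54 is the only member called lower whose groups overlapped. The calls of Mrps16 and Mrpl54 were each lost in 4 of the 6 fits that left out 1 library.

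Levels can be compared between members per length of exon. Merged exons ran from 607 to 8631 bases, with a median of 2394, and take in all annotated isoforms, so long rarely used exons lower a gene's value. Among tested members Normal levels ran from 1.596 ± 0.175 CPM per kb (Mrpl23) to 78.1 ± 6.90 (Mrpl34). Mrps21 followed with 77.2 ± 5.93, then Mrpl12 with 64.8 ± 5.998, Mrpl54 with 57.3 ± 9.81, Mrps24 with 55.8 ± 6.39 and Mrpl28 with 53.3 ± 6.63 CPM per kb (SD, n = 3). The ranges of mean ± SD overlapped for Mrpl34 and Mrps21, Mrpl12 and Mrpl54, Mrpl54 and Mrps24, and Mrps24 and Mrpl28. Both genes of a comparison were read in the same libraries, so the SDs hold differences between libraries that both share. The order within libraries was not tested. Of these 6 genes, Mrpl34, Mrps21 (log2 -0.74, edgeR adjusted p = 6.79e-04), Mrpl54 and Mrps24 fell, while Mrpl12 and Mrpl28 (-0.28, edgeR adjusted p = 0.108) were not called. The next small-subunit genes by level, Mrps23 at 30.8 CPM per kb and Mrps12 at 27.7, both fell. Mrpl33 was the second lowest tested member in Normal, at 1.87 ± 0.419 CPM per kb, and reached 4.94 ± 0.729 in Yap-activated libraries.

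Many of these genes start back to back with another gene. A protein-coding gene on the opposite strand starts within 500 bases upstream of 17 of the 78 members (21.8%), against 6.13% of 21529 protein-coding genes. Of the 16 partners tested, 5 fell and 5 rose, near the shares of all genes (29.7% and 29.8%). In 4 pairs both genes fell: Mrps27 with Ptcd2 (log2 -0.83 and -0.97), Mrpl2 with Klc4 (-0.55 and -0.42), Mrpl54 with Apba3 (-0.53 and -0.57) and Mrps12 with Sars2 (-0.51 and -0.35). With library totals alone none of these 4 members was called. Whether the genes of a pair change together was not tested. The 2 genes of a pair moved in opposite directions in 2 cases: Mrpl51 fell by 0.79 while the condensin gene Ncapd2 rose by 0.94, and Mrpl30 fell by 0.78 while Mitd1 rose by 0.57. With library totals alone Mrpl30 kept its call and Mrpl51 lost it. Mrpl57 was not called (-0.11; 0.39 with library totals alone), while its neighbour Ska3, a kinetochore gene, rose by 1.97.

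The rest of the mitochondrial translation machinery was compared from gene lists, with log2 medians given for TMM and then for library totals alone. Beside the TMM counts below, 29.7% of all genes tested fell and 29.8% rose. Of 5 ribosomal proteins with other symbols 3 fell and 1 rose (median -0.39, and 0.10). Dap3 (log2 -0.42, edgeR adjusted p = 0.00499), Ptcd3 (-0.56, adjusted p = 0.00199) and Aurkaip1 (-0.39, adjusted p = 0.0135) fell, and Chchd1 rose (0.66, adjusted p = 0.00734). Of 26 assembly and rRNA modification factors 13 fell and 1 rose (median -0.35, and 0.14), among the falls Ptcd1 (-0.86) and the membrane insertase Oxa1l (-0.60).

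Of 13 translation factors and mRNA activators 7 fell and none rose with TMM (median -0.49, and -0.00), with Taco1, an activator of Cox1 translation (-1.34), the mRNA-binding protein Lrpprc (-1.20) and the elongation factor Tufm (-1.10) among the falls. Of 20 mitochondrial tRNA synthetases and amidotransferase subunits 14 fell and none rose with TMM (median -0.65, and -0.16), among them Gatb (-1.54) and Fars2 (-1.36). Of 19 genes of mitochondrial transcription and RNA handling 10 fell and 3 rose (median -0.36, and 0.14), among the falls the RNA polymerase Polrmt (-0.67). With library totals alone the calls were 0 lower and 1 higher of the 5, 1 and 7 of the 26, 5 and 4 of the 13, 6 and 4 of the 20, and 1 and 6 of the 19. That fit called 15.7% of all genes lower and 51.5% higher.

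The members lay between the cytosolic ribosome and the respiratory chain. Of 83 cytosolic ribosomal protein genes 52 rose (62.7%, beside 29.8% of all genes) and 1 fell (median 0.64, and 1.13 with library totals alone). Of 77 nuclear-encoded respiratory chain genes 70 fell (90.9%, beside 29.7% of all genes) and 1 rose (median -1.36, and -0.87 with library totals alone). For each 100 reads of cytosolic ribosomal protein genes the members gave 16.1, 17.1 and 20.5 reads in Normal and 10.3, 10.1 and 9.30 in Yap-activated libraries. For each 100 reads of nuclear respiratory chain genes they gave 13.9, 14.4 and 13.0 reads in Normal and 33.0, 30.4 and 27.4 in Yap-activated libraries. Neither ratio overlapped between the groups, and neither depends on the scaling.

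**Figure D5:**
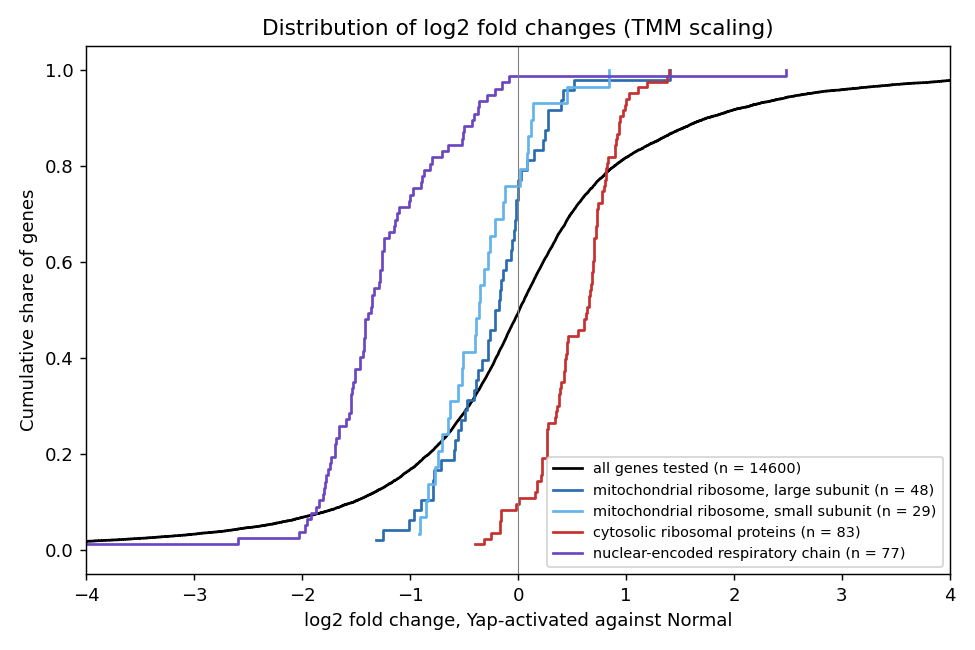
Cumulative share of genes (y axis) by log2 fold change with TMM scaling (x axis, shown from -4 to 4) for all 14600 tested genes, the 2 subunits of the mitochondrial ribosome, cytosolic ribosomal protein genes and nuclear-encoded respiratory chain genes. The curves of the mitochondrial ribosome are steep and sit slightly left of 0 (medians -0.19 and -0.36; 0.30 and 0.13 with library totals alone), between the respiratory chain (median -1.36) and the cytosolic ribosome (median 0.64).

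RNA levels of cell type markers also moved in the same comparison, in which 29.7% of all genes tested fell and 29.8% rose with TMM. Of 15 tested parietal cell markers 13 fell and 2 rose, and their summed level was 25643 to 34048 CPM in Normal and 1400 to 1573 in Yap-activated libraries, with none at 0 in all Yap-activated libraries. All 4 markers of surface mucous cells fell, from a sum of 42983 to 50210 CPM to one of 1377 to 2113 CPM. All 4 tested markers of pepsinogen-secreting chief cells fell, from a sum of 90020 to 140505 CPM to one of 159 to 194 CPM. Of 4 general epithelial markers 3 rose, from a sum of 3449 to 4235 CPM to one of 7346 to 8215 CPM. All 4 endothelial markers fell, from a sum of 144 to 156 CPM to one of 25.02 to 46.4 CPM, and 1 of 2 mucous neck cell, 2 of 5 fibroblast and 2 of 3 smooth muscle markers fell. None of 3 tested lymphoid markers was called. Myeloid markers summed to 39.3 to 44.8 CPM in Normal and 50.3 to 592 in Yap-activated libraries, with 4 of 6 higher. With library totals alone no smooth muscle marker fell and 1 rose, 1 lymphoid marker rose, and all 4 epithelial markers rose. The calls of the other marker lists kept their counts in that fit, which called 15.7% of all genes lower and 51.5% higher. Whether these changes have a part in those of the mitochondrial ribosomal protein genes was not tested, and in bulk tissue fewer cells of a type and less RNA per cell cannot be told apart.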

How the data were processed

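RNA of gastric corpus epithelium was sequenced in 6 libraries, 3 per group, as stranded poly(A) libraries with paired 50-base reads, per the labels' protocols. The authors deposited raw read counts per gene symbol, with no normalization. STAR 2.4.2a and DESeq2 are the tools, and GRCm38 with mm10 the builds, listed in the submitters' processing notes. The sources used here do not give how reads were counted (program, strand, several matches). Reads of overlapping genes or pseudogenes may therefore sit in a member's count. Exons of 28 members overlap a gene on the opposite strand and those of 8 a gene on the same strand.

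Members were taken by symbol, and positions, exon lengths and neighbours from GENCODE mouse release M21 on GRCm38. The whole table was fitted with edgeR 4.0.16 (R 4.3.3): filterByExpr with a minimum count of 10, TMM scaling, and the robust quasi-likelihood F-test between the groups of 3. P-values were adjusted over 14600 genes by the Benjamini-Hochberg method at 0.05, and a gene is called when it passes. The SE was derived from the log2 fold change and F. CPM are TMM-scaled. Lists and members have no test of their own; medians, counts and sums describe them.

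Members named are the largest called rises and falls without overlap (up to 8 each), the 4 highest per length in each subunit, a set of members with known roles, and those nearest the threshold; in lists, those with the smallest p and the highest level. Other members are named as parts of a counted group. The members and lists were chosen with earlier results of these data known. Alternatives were scaling by library totals alone, by DESeq2 size factors, by the upper quartile, and by TMM without mitochondrial or the 50 most abundant genes, no filter, 1 CPM in 3 libraries, DESeq2 1.42.0, limma 3.58.1 voom, a replicate block and leaving out each library. Ratios without Mrpl33, per length and among members without exon overlap were added after seeing the data.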

Additional observations from a re-analysis of the deposited data

How the results depend on the processing

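With library totals alone 7 members were lower (15.7% of all genes) and 28 higher (51.5% of all genes), and the median was 0.21 (large subunit 6 lower, 20 higher, median 0.30; small subunit 1 lower, 8 higher, median 0.13). That scaling turned 32 members from a negative to a positive log2 fold change, 9 of them called higher, among them Mrpl4 (0.28) and Mrpl22 (0.42). Among members named singly it also turned Mrpl12 to 0.12, Mrpl28 to 0.21, Mrps18a to 0.13, Mrps18b to 0.21, Mrpl58 to 0.016, Mrpl44 to 0.28, Mrps2 to 0.10 and Mrps16 to 0.094, and it raises the median of all genes by 0.49. With upper quartile scaling 7 members were higher (31.8% of all genes), 5 of them large-subunit genes. Leaving out each library in turn gave 22 to 32 members lower (24.6% to 28.9% of all genes) and 3 to 10 higher (23.5% to 28.8% of all genes). By subunit, 2 to 8 large-subunit genes were higher, with a median of -0.27 to -0.09. In the small subunit 1 to 2 were higher, with a median of -0.43 to -0.25. Mrps18c was at -0.0084 without Normal replicate 3. Mrps30 ranged from -0.039 (without Yap-activated replicate 2) to 0.065 over these fits, with -0.0087 without Normal replicate 3; the cause was not tested. Of 31 members that fell, 22 did so without each library in turn, and 31 by DESeq2 and by voom. With mitochondrial transcripts left out the members' share of counts was 0.301% and 0.311% (Normal, then Yap-activated). The subunit ratio was 2.28 and 2.55 by structure, 2.31 and 2.62 per length, 1.76 and 1.93 among members without exon overlap, and 2.02 and 2.21 without Mrpl33. Of those without exon overlap 21 fell (46.7%, beside 29.7% of all genes) and 2 rose (4.44%, beside 29.8%). Under every setting 7 members fell and 3 rose (Mrpl33, Mrpl45, Mrps6).

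Replicate numbers are shared by the groups, but same-numbered libraries did not clearly deviate together (correlations 0.0740, 0.0382 and 0.0799), so the numbers were not taken as pairs. With the replicate block 35 members were lower (29.6% of all genes) and 6 higher (29.0%), 4 of those higher in the large subunit. The 31 and 4 called without it were among them, and every library correlated best with its own number, a hint from the data and not the design. At this depth Mrpl53 was the only member left untested.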
